A study of Homo sapiens with 12 samples.

Results

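The comparison described here is that of MOLT4 cells exposed to SNS-032 at 1 µM for 6 h (3 samples) with MOLT4 cells exposed to the solvent DMSO for 6 h (3 samples), which together are 6 of the 12 samples of the series. MOLT4 is an established human T lymphoblast line from an acute lymphoblastic leukaemia, and the labels give every sample as wild type. The other 6 samples received compound 955, which carries SNS-032 as its target-binding part, at 0.1 µM for 1 h or 6 h, with 3 samples each. The labels number the replicates without saying that they came from separate cultures, so the tests measure a spread between samples that may be technical. The authors' fit may draw that spread from all 12 samples, those with 955 included.

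SNS-032 blocks several cyclin-dependent kinases (CDKs), CDK9 and CDK7 among them. CDK9 pairs with cyclin T as the elongation factor P-TEFb, which releases RNA polymerase II from its pause near the start of genes. While P-TEFb is idle it is held by the noncoding 7SK RNA and its partner proteins. Blocking CDK9 lowers the synthesis of most mRNAs, and transcripts with short half-lives, such as those of MYC and MCL1, are known to be lost first.

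The values came from a table of the authors' comparisons that lists 5759 genes, of which 5727 matched a gene symbol and 5269 are protein-coding. A gene was called higher or lower when its false discovery rate (FDR) was under 0.05 and its change at least 2-fold. With SNS-032, 2175 listed genes were higher (37.8%), 3021 were lower (52.5%) and 563 did not pass. The table itself is a selection, since 5757 of its genes passed in at least 1 of the 3 comparisons with DMSO that it holds, so each count below describes a list among these genes. A gene that is not listed was not analysed here. All folds below are levels with SNS-032 against DMSO at 6 h computed from the authors' log2 values, and the brackets hold 95% intervals computed from the authors' F statistics.

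The changes were large on both sides. At least 5-fold differences were found for 503 genes that rose and 751 that fell, and at least 10-fold differences for 152 and 205. The median log2 fold change over all listed genes was −1.07, and the quartiles were −1.75 and 1.44. The median standard error was 0.24 on the log2 scale. Because the listed genes were selected for passing in some comparison, neither this spread nor this error describes genes outside the table.

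How the authors scaled the libraries before computing the log2 values is not given in the sources used here, so a second scale was set beside theirs. The 13 mitochondrially encoded mRNAs are made by a separate polymerase that CDK9 does not serve, and all 13 were higher, by a median of 5.08-fold (log2 2.35), with cytochrome b mRNA (CYTB) at 6.02-fold (4.79 to 7.55). The mitochondrial ribosomal RNAs RNR1 and RNR2, named after their values were seen, stood at 5.63-fold (3.94 to 8.05) and 5.47-fold (4.29 to 6.97). When the mitochondrial mRNAs are taken as the reference, 492 of the 2175 genes called higher stay above 0. On this scale 91 pass the threshold used there as higher, and 4123 genes pass it as lower. That threshold kept the fold bound, but the FDR was not computed again. In its place stood a p of at most 0.0145, the value at which the authors' FDR reached its cut-off. The p came from the shifted log2 value and the gene's own standard error, with the shift of 2.35 taken as free of error. A gene above 0 on this mitochondrial scale has not by that passed the threshold there, and the genes that still passed are said to keep their call. Total RNA per cell was not used here, and in bulk samples fewer cells of a type and less RNA per cell cannot be told apart.

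**Figure D1:**
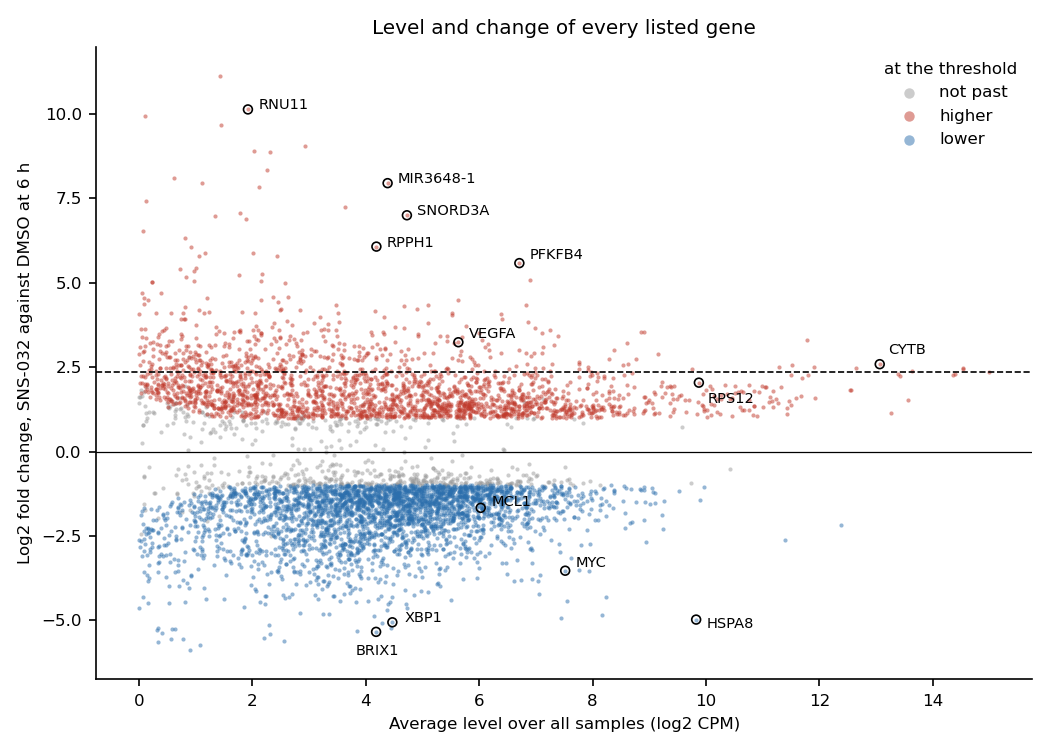
Each point is 1 listed gene, with its average level over all samples (log2 CPM, CPM being reads scaled to a common total) on the horizontal axis and its log2 fold change with SNS-032 on the vertical axis. The dashed line is the median of the mitochondrial mRNAs (2.35), above which 492 of the 2175 genes called higher lie, and the short RNAs RNU11, MIR3648-1, SNORD3A and RPPH1 stand highest among the circled genes.

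The elongation machinery itself was mostly lower. Of 12 listed members of the P-TEFb and pause-release list, 9 fell and 1 rose, with a median log2 fold change of −1.45. Cyclin T1 (CCNT1), the partner of CDK9, was 2.88-fold lower (2.08 to 3.99). MEPCE, the enzyme that caps and holds 7SK RNA, was 5.84-fold lower (4.84 to 7.04). RN7SK, the 7SK RNA itself, was the member that rose, by 11.2-fold (7.18 to 17.6), and it keeps its call on the mitochondrial scale. All 4 listed subunits of the PAF1 elongation complex fell, from CDC73 at 2.61-fold (2.13 to 3.20) to PAF1 at 8.82-fold (6.40 to 12.2). Of the super elongation complex, EAF1 and MLLT1 fell, and ELL was 1.40-fold lower (1.08 to 1.81) without reaching the fold bound. Neither CDK9 nor HEXIM1 was listed.

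Of 33 general transcription factors, 14 were listed, and all 14 were lower. Of 12 RNA polymerase II subunits, 4 were listed, of which 2 were lower and 2 did not pass. GTF2B, which bridges the promoter and the polymerase, was 13-fold lower (6.47 to 26.2). Of 20 listed Mediator subunits, 17 fell, led by MED18 at 18.9-fold (7.47 to 47.9). MED12 and its paralog MED12L were higher, at 2.0-fold (1.67 to 2.41) and 3.53-fold (2.85 to 4.37), and both lie below 0 on the mitochondrial scale. Among 34 listed splicing factors, 27 fell and 4 rose. BCAS2, a subunit of the catalytic spliceosome, was 37.8-fold lower (26.4 to 54.0), and the U2 protein SF3B4 9.89-fold lower (7.96 to 12.3). The 36 listed genes of mRNA cleavage, polyadenylation and decay held 27 that fell and 5 that rose. The poly(A)-binding protein PABPC1 was 3.51-fold higher (3.08 to 3.99), but below 0 on the mitochondrial scale.

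Cyclin-dependent kinases and cyclins leaned lower. Of 20 listed, 13 fell and 4 rose, beside 52.5% and 37.8% over all listed genes. Their median log2 fold change was −1.79, against −1.07 over all listed genes. The mitotic cyclins were low, with CCNA2 at 14.2-fold (11.1 to 18.1), CCNB2 at 13.7-fold (7.56 to 24.8) and CCNB1 at 9.88-fold (6.00 to 16.3). CDK1, their kinase partner, was 2.89-fold lower (2.39 to 3.49). CDK7, a target of SNS-032, was 22.3-fold lower, but its average level was low and its interval ran from 4.75 to 105. CDK6, among the more abundant listed mRNAs, was 1.44-fold lower (1.23 to 1.68) and did not reach the fold bound. CCND2, a D-type cyclin of the entry into the cell cycle, rose by 13.5-fold (5.28 to 34.5), and on the mitochondrial scale it lies above 0 without passing the threshold. The other 3 that rose, CCNL2, CDK10 and CDK11A, lay between 2.17- and 3.70-fold and fall below 0 on that scale. All 4 listed inhibitors fell, among them CDKN1B (p27) at 5.77-fold (3.80 to 8.76).

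Short-lived transcripts fell broadly. Of 34 listed early-response genes, 26 were lower and 3 higher, and of the 20 feedback inhibitors among them 17 were lower and none higher. MYC, the growth-promoting transcription factor, was 11.6-fold lower (7.32 to 18.3). NFKBIA, the inhibitor of NF-kB, was 10.5-fold lower (6.57 to 16.6), and the kinase PIM3 17-fold lower (11.7 to 24.8). The exceptions were FOS at 4.97-fold (2.70 to 9.15), MAFF at 4.83-fold (2.27 to 10.2) and FOSL2 at 2.76-fold (1.76 to 4.31), all 3 called higher and all 3 below 0 on the mitochondrial scale. IER2 and BCL6 did not change past the threshold, at 1.07-fold (0.705 to 1.61) and 1.01-fold (0.617 to 1.64) lower.

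Of the BCL2 family, which governs mitochondrial cell death, 5 members were listed and 4 fell. MCL1, which encodes a short-lived survival protein, was 3.18-fold lower (2.53 to 4.0), and BCL2L1 2.64-fold lower (2.15 to 3.25). The death effector BAK1 fell by a like amount, at 3.24-fold (2.58 to 4.06), and the BH3-only gene BIK was 3.42-fold lower (1.76 to 6.61). BMF, another BH3-only gene, was 1.5-fold lower (1.08 to 2.09) and did not pass. BCL2 and XIAP were not listed.

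In the NF-kB list, 9 of 17 listed genes fell and 5 rose, with a median log2 fold change of −1.04. Over all listed genes 52.5% fell, 37.8% rose and the median was −1.07. The factor RELA was 5.82-fold lower (3.79 to 8.93), while NFKB2, the precursor of the alternative pathway's p52, was 3.14-fold higher (2.44 to 4.05) on the deposited scale and below 0 on the mitochondrial scale. TRAF1, an adaptor of tumour necrosis factor receptors, was 11.4-fold higher (6.20 to 21.1) and keeps its call on that scale.

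Genes that mark the lineage moved both ways, as did all listed genes, of which 37.8% were called higher and 52.5% lower. Of 16 T lymphoblast markers, 6 were listed, and they had average levels from 3.74 to 7.60 log2 CPM, with CD4, CD7 and DNTT called higher and CD2, CD3G and RAG2 lower. CD2, an adhesion receptor, was 10.2-fold lower (7.83 to 13.3), and RAG2, a subunit of the V(D)J recombinase, 8.38-fold lower (5.71 to 12.3). CD4 was 5.18-fold higher (2.62 to 10.2) and CD7 3.73-fold higher (3.15 to 4.40), and CD7 lies below 0 on the mitochondrial scale while CD4 lies just above it, at 0.03, without passing the threshold. Of 14 listed T-cell leukaemia transcription factors, 7 fell and 2 rose, against a median log2 fold change of −1.07 in this list and over all listed genes alike. GATA3 was 2.64-fold lower (1.62 to 4.30), and BCL11B, a factor of T-cell commitment, 2.98-fold higher (2.37 to 3.73) on the deposited scale but below 0 on the mitochondrial scale. TAL1, RUNX1, MYB and NOTCH1 were not listed. Markers of other blood cells were few, with none of 9 myeloid markers listed, and with the B-cell marker CD79A called higher at 2.15-fold (1.61 to 2.85) and below 0 on the mitochondrial scale. ITGA2B, a platelet integrin, was 18.3-fold higher (9.65 to 34.7), and keeps its call on that scale.

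Cytosolic and mitochondrial ribosomal proteins went in opposite directions. Of 65 listed cytosolic ribosomal protein genes, 60 were higher with a median log2 fold change of 1.53, although all 65 lie below 0 on the mitochondrial scale. Their rises were narrow, and the top 3 were RPS12 at 4.12-fold (3.42 to 4.95), RPL22 at 3.85-fold (3.31 to 4.48) and RPL37A at 3.84-fold (3.18 to 4.64). Of the 4 that fell, 3 are paralogs of other ribosomal protein genes, namely RPL26L1, RPS27L and RPL7L1. The fourth, RPL36A, had a low level and was 3.16-fold lower (1.68 to 5.93). Ribosomal proteins have many processed pseudogenes, and how reads shared with them were counted is not given in the sources used here. Of 62 listed mitochondrial ribosomal protein genes, 58 were lower and none higher, with a median of −2.06. MRPL58 was 28.0-fold lower (8.40 to 93.0), MRPS2 23.0-fold (7.86 to 67.1) and MRPS12 22.2-fold (15.3 to 32).

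mRNAs of cytosolic ribosomal proteins are known for a run of pyrimidines at their first bases (the TOP tract), which ties their translation and stability to nutrient signals. The bases around the start site of the 3 genes named first are shown to let this be seen, from RefSeq on GRCh38.p14, with the searched letters CTTTC in capitals.
RPS12, chr6:132814548-132814593, plus strand: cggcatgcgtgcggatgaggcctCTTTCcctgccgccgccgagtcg
RPL22, chr1:6199571-6199617, minus strand: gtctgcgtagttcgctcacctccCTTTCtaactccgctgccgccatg
RPL37A, chr2:216498821-216498868, plus strand: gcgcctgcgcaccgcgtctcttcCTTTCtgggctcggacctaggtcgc
Searched on the sense strand from 10 bases before to 20 after the start, CTTTC was present in 23 of 48 raised cytosolic ribosomal protein genes with a promoter entry (47.9%), in 2 of 51 lowered mitochondrial ones (3.92%) and in 4.07% of all 27305 genes with one. CCGGAAG, the core bound by ETS factors, was present on either strand in 21 of the 51 lowered mitochondrial ones (41.2%), in 10.7% of all genes and in 26.5% of all listed genes that fell. These are matches of letters and not measured sites.

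Ribosome assembly genes fell, in contrast to the cytosolic ribosomal protein genes. Of 92 listed ribosome biogenesis genes, 88 were lower and 2 higher, and the median log2 change was −1.79. Of the small-subunit processome, 35 of 36 listed members fell, and all 30 listed large-subunit assembly factors fell. BRIX1, a large-subunit assembly factor, was 40.6-fold lower (24.0 to 68.8), the largest fall among genes above the median level. MPHOSPH10 of the processome was 22.0-fold lower (10.0 to 48.3). POP7, a protein of the RNA-cutting enzymes RNase P and RNase MRP, was 24.7-fold lower (18.3 to 33.3), and the other 7 listed proteins of these enzymes fell too. In RNA polymerase I, 9 of 11 listed genes fell, led by POLR1G at 20.8-fold (6.31 to 68.6). The 2 biogenesis genes called higher, TAF1C at 2.24-fold (1.89 to 2.65) and NOP53 at 2.15-fold (1.84 to 2.51), lie below 0 on the mitochondrial scale.

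Many of these genes are textbook targets of MYC, which binds the E-box CACGTG. The promoters of the 3 most lowered assembly genes that hold CACGTG before the start site are shown with these letters in capitals.
SURF6, chr9:133336385-133336434, minus strand: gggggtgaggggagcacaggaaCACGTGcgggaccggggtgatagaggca
IMP4, chr2:130342672-130342721, plus strand: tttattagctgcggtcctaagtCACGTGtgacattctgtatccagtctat
UTP4, chr16:69132611-69132660, plus strand: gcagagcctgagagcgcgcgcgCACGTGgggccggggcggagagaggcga
SURF6, IMP4 and UTP4 were 6.89-fold (4.89 to 9.71), 5.19-fold (3.46 to 7.79) and 4.19-fold (2.87 to 6.10) lower. CACGTG, a palindrome searched on both strands from 250 bases before to 50 after the start, was present in 26 of 53 lowered subunit assembly genes (49.1%) and in 7.43% of all genes with a promoter entry. Among all listed genes that fell, it was present in 10.9%. In the wider list of MYC targets, 18 of 22 listed genes fell and 4 rose. TERT, the catalytic subunit of telomerase, was 3.89-fold higher (2.70 to 5.60) on the deposited scale and below 0 on the mitochondrial scale.

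**Figure D2:**
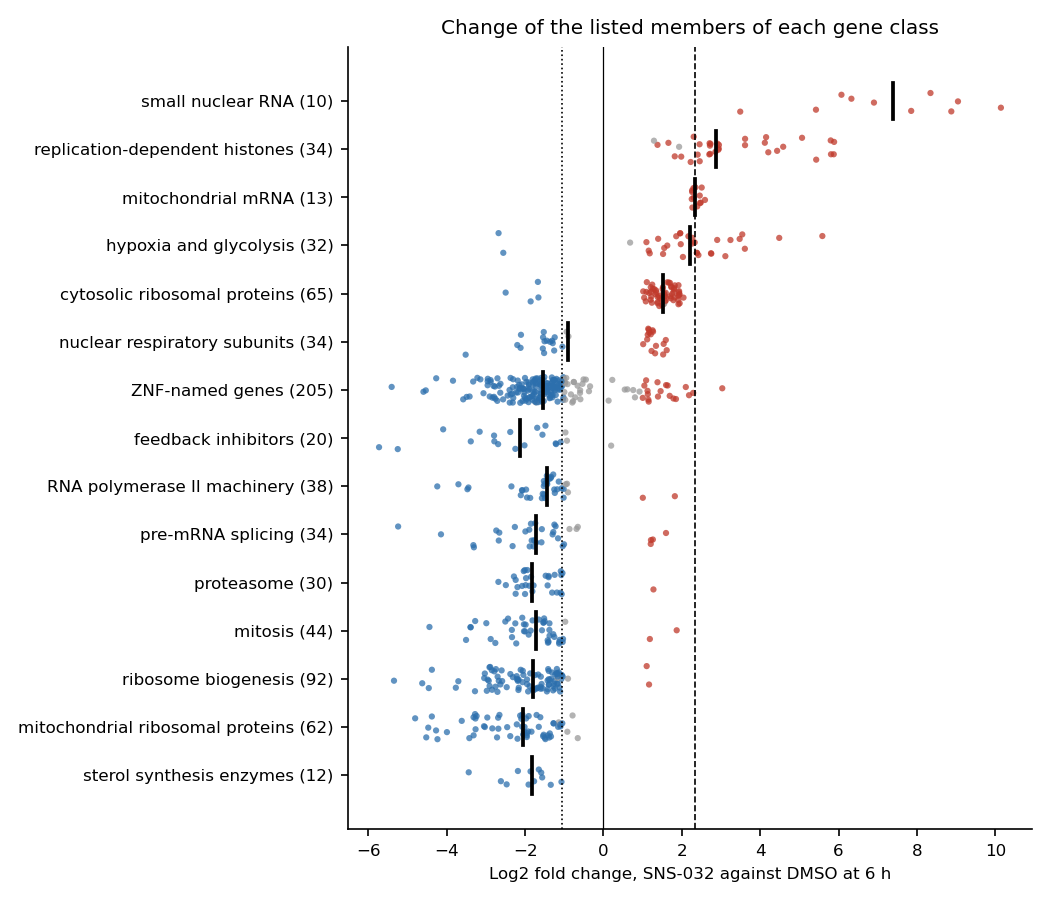
Points are listed members of each gene class (number in brackets), placed by log2 fold change with SNS-032 and coloured red when called higher, blue when called lower and grey otherwise, with a black bar at the class median. The dotted line is the median of all listed genes (−1.07) and the dashed line that of the mitochondrial mRNAs (2.35); all but 4 cytosolic ribosomal proteins lie right of 0, all of them lie left of the dashed line, and the mitochondrial ribosomal proteins lie left of 0.

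Mitotic genes were low. Of 44 listed, 41 fell and 2 rose, with a median of −1.73 on the log2 scale, and all 19 listed mitotic kinase and checkpoint genes fell. PLK1, a kinase needed from mitotic entry to cytokinesis, was 21.7-fold lower (17.4 to 27.1). CDC20, the activator of the anaphase-promoting complex, was 11.4-fold lower (8.96 to 14.4), and CDCA8 of the chromosomal passenger complex 7.35-fold (5.86 to 9.23). KNTC1 and CENPH of the kinetochore were called higher at 3.65-fold (3.11 to 4.28) and 2.27-fold (1.87 to 2.76), and both lie below 0 on the mitochondrial scale. Promoters of late cell-cycle genes are known for the CHR element TTTGAA, and those of the 3 genes just named are shown with it in capitals.
PLK1, chr16:23678838-23678887, plus strand: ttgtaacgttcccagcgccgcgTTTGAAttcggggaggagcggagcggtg
CDC20, chr1:43358894-43358943, plus strand: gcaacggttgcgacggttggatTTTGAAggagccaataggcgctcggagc
CDCA8, chr1:37692471-37692520, plus strand: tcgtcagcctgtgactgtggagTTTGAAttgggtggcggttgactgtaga
On both strands of the same window, TTTGAA was present in 18 of 35 lowered mitotic genes (51.4%), in 15.4% of all genes with a promoter entry and in 11.9% of all listed genes that fell. CCAAT, the box bound by NF-Y, was present in 28 of the 35, against 35.7% of all.

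DNA replication and repair genes followed the same direction, with 26 of 33 listed members lower. PCNA, the sliding clamp of DNA polymerases, was 18.5-fold lower (14.8 to 23.2), and FEN1, which trims Okazaki fragments, 8.52-fold lower (6.71 to 10.8). Of the 4 called higher, POLE, FANCA and ATM lay between 2.21- and 3.11-fold, all 3 below 0 on the mitochondrial scale.

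Histone genes divided by type. Replication-dependent histone mRNAs end in a stem-loop in place of a poly(A) tail, whereas the replication-independent variants are polyadenylated. Of 34 listed replication-dependent genes, 32 were called higher and none lower, with a median log2 fold change of 2.88. On the mitochondrial scale the median is 0.54, 26 of the 34 lie above 0 and 10 are called higher. H3C13 and H3C8 stood at 58.7-fold (20.6 to 167) and 55.6-fold (29.3 to 106), and H2BC8 at 43.0-fold (7.68 to 241), of which H2BC8 does not keep its call on that scale. The average levels of the listed replication-dependent genes ran only from 0.33 to 3.03 log2 CPM. Their largest folds therefore depend on small numbers of reads and on the authors' handling of zeros. Of the 4 listed replication-independent genes, H2AX was 11.5-fold lower (9.35 to 14.3), H2AZ1 4.06-fold lower (3.14 to 5.23) and H3-3B 3.22-fold lower (2.74 to 3.77), while H3-3A was 2.05-fold higher (1.55 to 2.72) on the deposited scale and below 0 on the mitochondrial scale. The libraries were made with an mRNA kit, per the labels. The share of tailed histone transcripts was not measured, and near-identical histone copies can share reads.

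The compact histone promoters carry a TATA box close to the start site, shown in capitals for 2 of the most raised genes.
H3C13, chr1:149813697-149813746, minus strand: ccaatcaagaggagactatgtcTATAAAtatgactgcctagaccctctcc
H2BC8, chr6:26216693-26216742, minus strand: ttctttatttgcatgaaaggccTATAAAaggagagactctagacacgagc
TATAAA was present on either strand in 18 of 28 raised histone genes (64.3%) and in 12% of all genes with a promoter entry, and CCAAT in 27 of the 28 against 35.7% of all. The H2BC8 window also lies in the promoter window of its divergent neighbour H2AC8, which was 55.9-fold higher (22.2 to 141). The same letters, 206 bases before the H2AC8 start on the other strand, were counted for H2AC8 too.

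Short structured RNAs, which are not polyadenylated in their mature form, made up the extreme rises. All 10 listed small nuclear RNA genes were called higher, from RN7SK at log2 3.49 to RNU11, the RNA of a minor-spliceosome particle, at 10.1, and all 10 keep their call on the mitochondrial scale. SNORD3A, a gene for the U3 RNA of ribosomal RNA processing, was 128-fold higher (92.4 to 178). RPPH1, the RNA subunit of RNase P, was 67.3-fold higher (42.7 to 106), in contrast to the 8 RNase P and MRP proteins that fell. MIR3648-1, the largest rise among genes above the median level, was 248-fold higher (117 to 525). SNORD3A, RPPH1 and MIR3648-1 keep their call on the mitochondrial scale. Of 14 listed small nucleolar and Cajal body RNAs, 10 rose and 4 fell, and 7 are called higher and 5 lower on the mitochondrial scale. SNORD31, which is encoded within the introns of another gene, was 46.8-fold lower (15.2 to 144). All 4 listed cytosolic transfer RNA genes rose, and all 4 keep their call on that scale. Most of these genes had average levels under 3 log2 CPM, and the counts in the DMSO libraries were not used here, so the largest folds depend on small numbers of reads and on the authors' handling of zeros. Short RNAs with near-identical copies can share reads, and whether the counting used strand is not given in the sources used here.

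Genes of the hypoxia response and of glycolysis were mostly called higher. Hypoxia-inducible factors bind RCGTG sites and raise glycolytic enzymes, while the prolyl hydroxylase EGLN1 marks them for destruction in the presence of oxygen. Of 32 listed genes, 29 were called higher and 2 lower, with a median log2 fold change of 2.21. On the mitochondrial scale the median is −0.13, 13 of the 32 lie above 0, and 2 are called higher against 6 lower. PFKFB4, which makes the activator of phosphofructokinase, was 48.0-fold higher (14.6 to 158), and the neuronal enolase ENO2 11.6-fold (7.70 to 17.6). PDK1, a kinase that inactivates pyruvate dehydrogenase, was 8.63-fold higher (4.20 to 17.7). Of genes outside glycolysis, the collagen-modifying enzymes P4HA1 and LOX were 12.2-fold (5.21 to 28.5) and 22.4-fold (3.43 to 146) higher. The carbonic anhydrase CA9 was 11.1-fold higher (3.02 to 40.8), and the angiogenic factor VEGFA 9.44-fold (4.60 to 19.4). On the mitochondrial scale PFKFB4 and ENO2 keep their call, whereas PDK1, P4HA1, LOX, CA9 and VEGFA lie above 0 but no longer pass. EPAS1, which encodes hypoxia-inducible factor 2 alpha, was 5.22-fold higher (2.63 to 10.4), just above 0 on that scale without passing, and EGLN1 2.63-fold higher (1.32 to 5.22) and below it. The abundant enzymes GAPDH, at 2.87-fold (2.53 to 3.25), and ENO1, at 4.77-fold (4.05 to 5.62), were called higher and lie below 0 on that scale. The 2 that fell act at the last step, as LDHA, which turns pyruvate into lactate, was 6.40-fold lower (2.45 to 16.7), and SLC16A1, which exports lactate, 5.88-fold (4.17 to 8.30). INSIG2 was 1.60-fold higher (0.988 to 2.60) and did not pass. Oxygen was not varied in this design, and no oxygen measurement was used here.

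**Figure D3:**
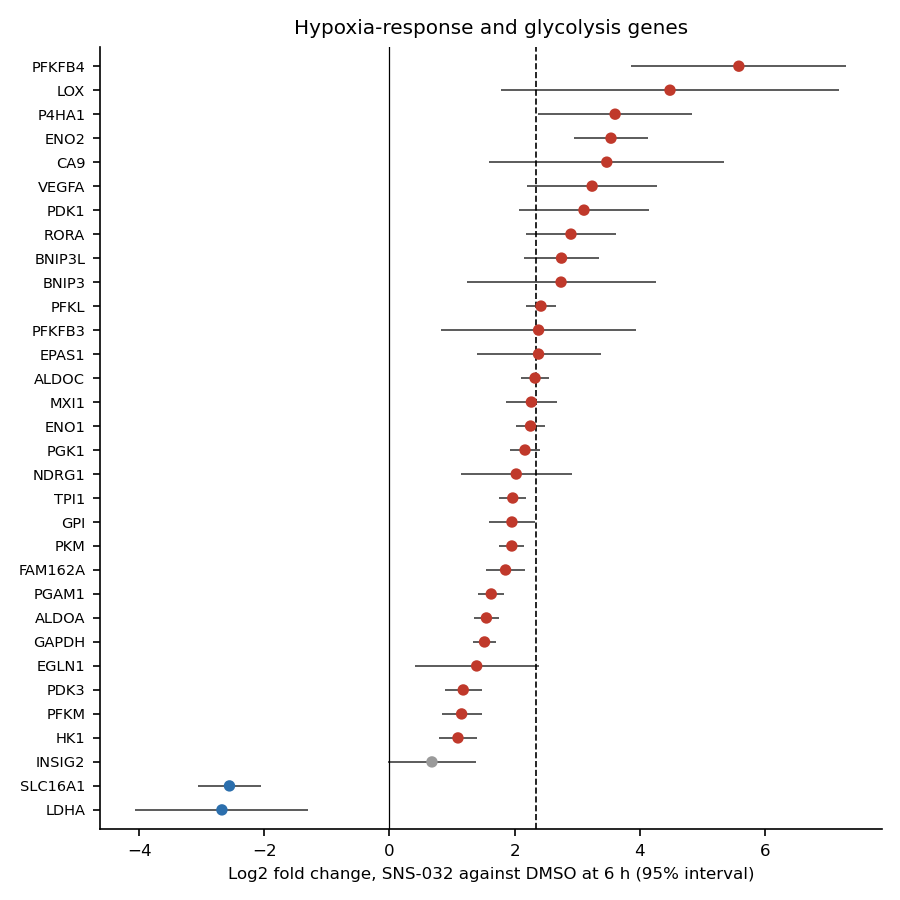
Log2 fold change with SNS-032 and its 95% interval for the 32 listed hypoxia-response and glycolysis genes, red when called higher, blue when lower and grey otherwise, with the dashed line at the median of the mitochondrial mRNAs (2.35). PFKFB4 is highest, 13 genes lie right of the dashed line, and LDHA and SLC16A1 alone lie left of 0.

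The promoters of the 3 most raised genes of the list that hold ACGTG before the start site are shown with these letters, or their reverse complement, in capitals.
LOX, chr5:122078275-122078324, minus strand: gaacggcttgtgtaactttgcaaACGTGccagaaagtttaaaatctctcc
P4HA1, chr10:73096926-73096975, minus strand: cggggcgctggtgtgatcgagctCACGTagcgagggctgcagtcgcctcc
ENO2, chr12:6914439-6914488, plus strand: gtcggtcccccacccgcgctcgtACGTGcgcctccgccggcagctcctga
ACGTG, which also lies within CACGTG, was present on either strand in 12 of 24 raised genes of the list (50%), in 21.6% of all genes with a promoter entry and in 24.4% of all listed genes that rose.

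Chaperone genes were mostly lower, and targets of the unfolded protein response were mixed. HSPA8, the constitutive cytosolic HSP70, was 31.6-fold lower (17.2 to 57.9), and 10 of 12 listed genes of the heat shock list fell. DNAJA1, a co-chaperone of HSPA8, was 14.1-fold lower (7.48 to 26.8), and the chaperonin subunit CCT5 6.66-fold lower (4.65 to 9.53). The heat shock element letters GAANNTTC were present on either strand in 2 of 9 lowered heat shock genes (22.2%) and in 6.87% of all genes with a promoter entry. HSPB1 was 3.56-fold higher (1.95 to 6.50) on the deposited scale and below 0 on the mitochondrial scale. XBP1, whose spliced form drives the unfolded protein response, was 33.4-fold lower (16.5 to 67.5). HSPA5, the HSP70 of the endoplasmic reticulum, was 30.9-fold lower (13.2 to 72.1), and of 20 listed targets of the unfolded protein and integrated stress responses 13 fell and 6 rose. These counts and the list's median of −1.25 are near those of all listed genes, with 52.5% lower, 37.8% higher and a median of −1.07. The largest falls after HSPA5 were also endoplasmic reticulum genes, with SDF2L1 at 17-fold (9.03 to 32.2), DNAJB9 at 15.2-fold (8.45 to 27.3) and MANF at 11.7-fold (5.98 to 22.7). Of the 6 that rose, ASNS, PSAT1 and SLC7A11 serve amino acid supply; they were 4.70-fold (3.02 to 7.30), 2.39-fold (1.53 to 3.73) and 2.79-fold (1.51 to 5.15) higher, and all 3 lie below 0 on the mitochondrial scale. STC2 and VLDLR, at 12.3-fold (2.18 to 69.2) and 10.8-fold (4.90 to 23.9), lie above it without passing the threshold there.

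The endoplasmic reticulum stress element (ERSE), a CCAAT box and a CCACG box 9 bases apart, was present on either strand in 3 of the 13 lowered targets and in 0.0806% of all genes with a promoter entry. All 3 are shown, with the element or its reverse complement in capitals.
HSPA5, chr9:125241376-125241425, minus strand: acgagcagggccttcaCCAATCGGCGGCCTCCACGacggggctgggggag
CALR, chr19:12938368-12938417, plus strand: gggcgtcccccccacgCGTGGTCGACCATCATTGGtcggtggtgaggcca
HSP90B1, chr12:103930305-103930354, plus strand: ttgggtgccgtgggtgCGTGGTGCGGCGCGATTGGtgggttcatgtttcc
CALR and HSP90B1, both chaperones of the endoplasmic reticulum, were 4.86-fold (4.10 to 5.77) and 2.32-fold (1.68 to 3.22) lower.

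Protein breakdown, sterol synthesis and redox control gave further one-sided or mixed groups. Of 30 listed proteasome genes 29 fell, led by the catalytic subunit PSMB5 at 6.42-fold (4.31 to 9.55), and PSME1 was 2.42-fold higher (1.83 to 3.20) but below 0 on the mitochondrial scale. All 12 listed sterol synthesis enzymes fell. SQLE, the squalene epoxidase, was 10.8-fold lower (5.25 to 22.4). The sterol regulatory element letters TCACNCCAC were present in 0 of 7 lowered enzymes with a promoter entry and in 1.15% of all such genes. KEAP1, the sensor that marks NFE2L2 for destruction, was 12.7-fold lower (8.89 to 18.2), and NFE2L2 itself, the master factor of antioxidant genes, 2.28-fold lower (1.53 to 3.39). Among 11 listed targets of NFE2L2, 4 were called higher, 2 lower and 5 did not pass. Over all listed genes 37.8% were called higher and 52.5% lower, so the share of these targets called higher is near that of all. FTL, the ferritin light chain, was 3.40-fold higher (2.85 to 4.07) and below 0 on the mitochondrial scale.

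The nuclear and mitochondrial genes of the respiratory chain differed. All 13 mitochondrial mRNAs were called higher, whereas of 34 listed nuclear subunits 16 rose and 16 fell, beside 37.8% and 52.5% over all listed genes. All 34 lie below 0 on the mitochondrial scale. COX6C of complex IV was 3.06-fold higher (2.36 to 3.96), and UQCRFS1, the Rieske protein of complex III, 11.4-fold lower (8.84 to 14.8).

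The remaining genes named by rank were the largest changes above the median level. After MIR3648-1, SNORD3A, RPPH1 and PFKFB4, the rises were PPFIA4, a liprin scaffold, at 34.1-fold (23.6 to 49.2), CDHR1 at 22.6-fold (6.62 to 77.5), CERCAM at 20.4-fold (7.25 to 57.6), UAP1L1 at 20.1-fold (9.09 to 44.5), the cation channel TRPM5 at 19.7-fold (8.34 to 46.8) and the proteoglycan AGRN at 18.7-fold (8.09 to 43.1). All of these lie above 0 on the mitochondrial scale, and PPFIA4, UAP1L1, TRPM5 and AGRN keep their call while CDHR1 and CERCAM do not. The falls not yet described were MPV17L2, which takes part in mitochondrial ribosome assembly, at 33.6-fold (18.4 to 61.3), the nuclear import adaptor KPNA2 at 28.6-fold (20.4 to 40.0) and SAC3D1 at 25.9-fold (18.9 to 35.6).

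Direction went with transcript features across the listed coding genes. Cut into 5 equal groups by the GC content of the spliced transcript, 23.4% of the genes with the lowest GC (31.8 to 41.4%) were called higher, and 58.5% of those with the highest (59.2 to 73.8%). Of genes with 2 to 4 exons 24.1% were called higher, and of genes with over 16 exons 58.2%. Both features together gave the widest range, from 31 of 258 genes (12%) with low GC and 2 to 4 exons to 182 of 211 genes (86.3%) with high GC and over 16 exons. In 5 equal groups by average level, the share called higher was 48.4% in the lowest, 22.9% in the middle and 49.8% in the highest. Genes are not independent replicates, so no test is given. GC content, exon number, level and library preparation are linked, and their parts in the changes were not tested. Most of the genes called higher are below 0 on the mitochondrial scale.

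**Figure D4:**
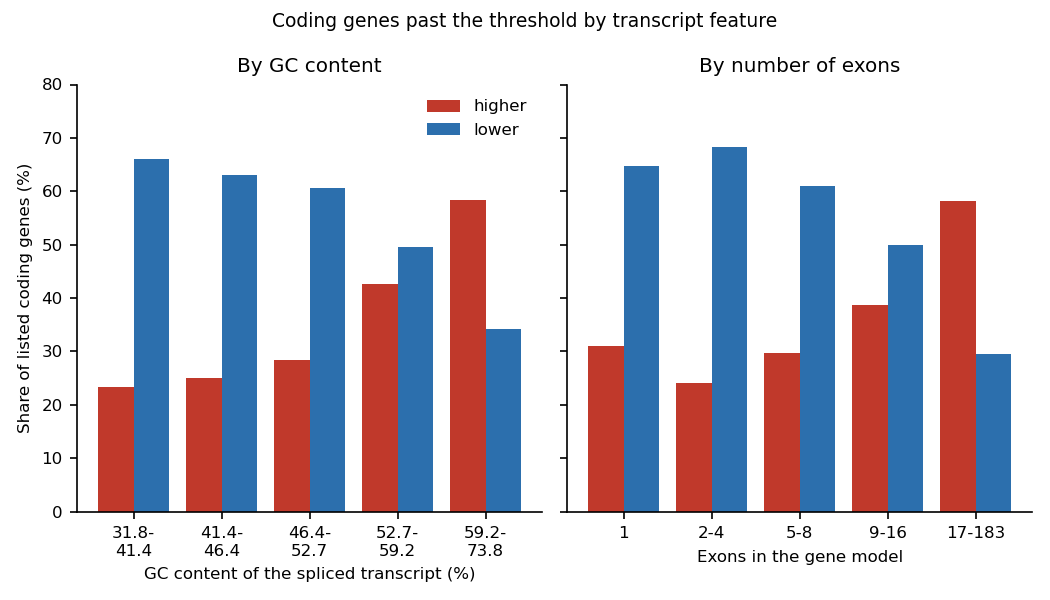
Share of listed coding genes called higher (red) and lower (blue) with SNS-032, in 5 equal groups by GC content of the spliced transcript and in 5 classes of exon number. The red bars rise from 23.4% to 58.5% across the GC groups and reach 58.2% above 16 exons, on the deposited scale.

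Beside SNS-032 at 1 µM, 955 at 0.1 µM for 6 h gave a like range of changes, with a median log2 fold change of −1.03 over the listed genes. The doses differ and the DMSO samples are shared, so the values are side by side, and the difference between the compounds was approximated from the table. Of 5759 listed genes, 64 (1.11%) differed at least 2-fold with an adjusted p under 0.05. The U3 gene SNORD3A was 128-fold higher with SNS-032 and 37.2-fold higher with 955, a log2 difference of 1.79 (1.33 to 2.25). DDX10, a helicase of ribosome assembly, was 3.04-fold lower with SNS-032 and 7.45-fold lower with 955, a log2 difference of 1.29 (0.90 to 1.68). LCLAT1, an acyltransferase of cardiolipin, was 1.05-fold higher with SNS-032, without passing, and 2.07-fold lower with 955. In the other direction POP7 was 24.7-fold lower with SNS-032 and 8.83-fold lower with 955, a log2 difference of −1.48 (−1.90 to −1.07). PCNA was 18.5-fold lower with SNS-032 and 8.80-fold lower with 955, a difference of −1.07 (−1.39 to −0.75). The mitochondrial ribosomal protein MRPL17 was 9.69-fold and 3.0-fold lower, and the noncoding LINC01003 11.9-fold and 2.60-fold lower.

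**Figure D5:**
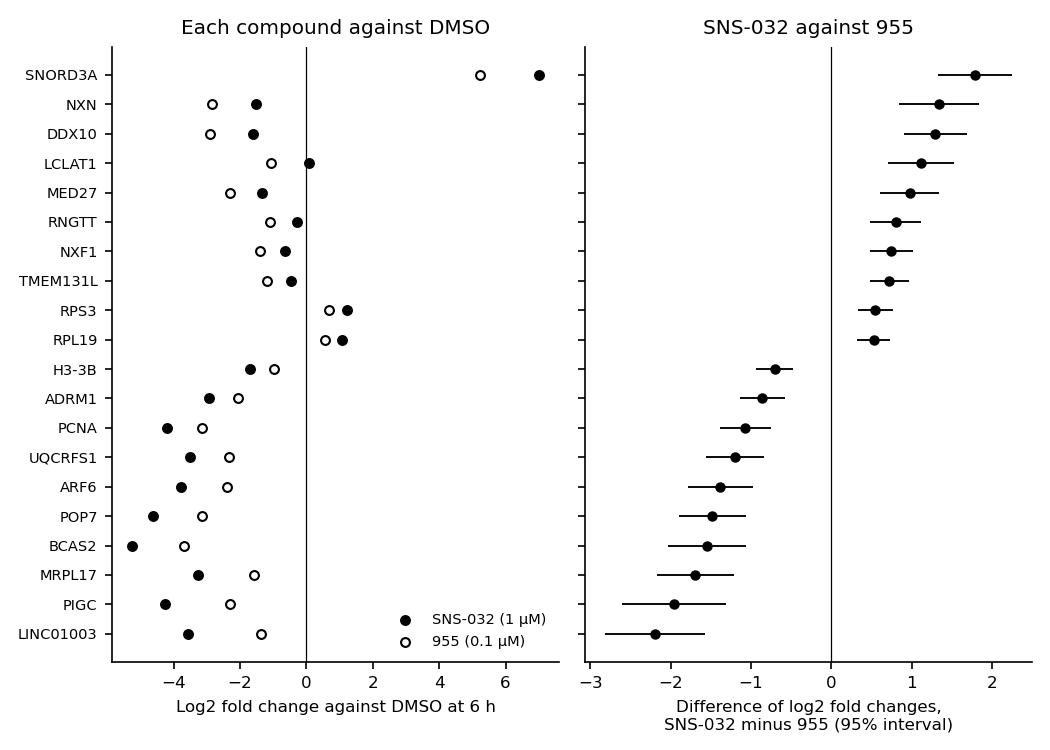
Left, log2 fold changes against DMSO at 6 h for SNS-032 at 1 µM (filled) and 955 at 0.1 µM (open) in the 10 genes per direction with the smallest p for the difference. Right, the difference SNS-032 minus 955 with its 95% interval, which runs from −2.19 for LINC01003 to 1.79 for SNORD3A.

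The cytosolic ribosomal proteins RPL19 and RPS3 were among the 10 genes with the smallest p in the direction of SNS-032. RPL19 was 2.11-fold higher with SNS-032 and 1.47-fold higher with 955, and RPS3 2.35-fold and 1.61-fold higher, with all 4 values below the mitochondrial mRNAs. Of the 65 listed cytosolic ribosomal proteins, 60 had the higher value with SNS-032, with a median log2 difference of 0.32, against 2895 of 5759 and a median of 0.00122 over all listed genes. On the mitochondrial scale the median difference of these proteins is 0.047 and 47 of 65 have the higher value with SNS-032, and RPL19 and RPS3 no longer differ at an adjusted p under 0.05. They also no longer do so when the shared DMSO samples are not allowed for in the error.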

How the data were processed

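RNA was extracted from MOLT4 cells with a column kit and sequenced from an mRNA library, per the labels. The file used holds the authors' comparisons of 3 treated groups with DMSO, with no values per sample, so the depth is unknown. Per the file headers it gives log2 fold changes, average log2 CPM, an F score, a p-value and an FDR. The submitters' processing notes name DESeq2 and hg38, while the column names are those of a quasi-likelihood F test; the aligner, counter and annotation are not given in the sources used here. The count tests planned were replaced by these deposited values.

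From them, standard errors (the size of each log2 value divided by √F), degrees of freedom (8.23 to 23.3, from F and p) and 95% intervals were computed with pandas 2.3.3 and scipy 1.17.1. The difference between SNS-032 and 955 was taken from both log2 values, with the shared DMSO samples allowed for. Its calculation was run on simulated log values with the same spread in every group. That run could not check the calculation where errors are unequal between the comparisons. Symbols came from Entrez identifiers, gene features from GENCODE 29 and promoters from RefSeq (GRCh38.p14).

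Gene lists were chosen with earlier results of these data known. Genes named were the 10 largest changes per direction above the median level, up to 6 members per list role and direction, key regulators, and 10 genes per direction with the smallest p between the compounds; others are said to be named after their values were seen. Alternatives covered the thresholds, the level filter, the mitochondrial scale and the shared control. Some genes are not reported here.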

Additional observations from a re-analysis of the deposited data

How the results depend on the processing

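No paired analysis was possible because the table holds no values per sample, and leaving out replicates, other normalizations and low-count filters were not run for the same reason. Counts past the threshold (5196 genes, 2175 higher and 3021 lower) were 1853 (761 and 1092) at 4-fold, 2944 (1139 and 1805) with Bonferroni adjustment, 3139 (1273 and 1866) with the 95% interval wholly beyond 2-fold and 2649 (1050 and 1599) above the median level; no fold bound, an FDR under 0.01 and a level of at least 1 kept them within 1.5 times. On the mitochondrial scale, where a p cut-off stood in for the FDR, 91 genes were higher and 4123 lower. There the share of higher calls went from 41.9% to 2.16%, and 2 rather than 5 lists held more higher than lower members. The difference between the compounds, 64 genes, became 8 when the shared DMSO samples were not allowed for in its error, and 181 on the mitochondrial scale. Of the 20 genes named by the smallest p, 8 of which differ by less than 2-fold and are not among the 64, 12 no longer had an adjusted p under 0.05 without the allowance for the shared samples, and 2, RPL19 and RPS3, on the mitochondrial scale. Above the median level, 52.4% of genes with over 16 exons were called higher. The promoter searches were not planned in advance, and allowing any listed promoter of a gene was a choice made after seeing the data. With any promoter allowed, ACGTG was present in 70.8% of the raised hypoxia and glycolysis genes, and the other 11 shares stayed within their 95% intervals. Shares over all genes were not computed in that way, so the 70.8% has no like value among the shares given above for all genes.

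Median log2 fold changes that turned negative on the mitochondrial scale were those of histone acetylation (−1.32), hypoxia and glycolysis (−0.13), glycolytic enzymes (−0.39), autophagy (−1.27), the respiratory chain (−1.18), cytosolic ribosomal proteins (−0.82), microRNA genes (−0.74) and markers of other cell types (−0.059). The named genes that turned negative, with their log2 values there, were FOS (−0.032), MAFF (−0.074), ENO1 (−0.091), ASNS (−0.11), RPS12 (−0.30), TERT (−0.39), RPL22 (−0.40), RPL37A (−0.40), CD7 (−0.45), CCNL2 (−0.46), KNTC1 (−0.48), HSPB1 (−0.51), MED12L (−0.53), PABPC1 (−0.54). Further down were FTL (−0.58), NFKB2 (−0.69), FANCA (−0.71), COX6C (−0.73), BCL11B (−0.77), ATM (−0.82), GAPDH (−0.83), SLC7A11 (−0.86), FOSL2 (−0.88), EGLN1 (−0.95), DNTT (−1.02), CDK10 (−1.05), PSME1 (−1.07), PSAT1 (−1.09). The lowest were RPS3 (−1.11), CENPH (−1.16), TAF1C (−1.18), POLE (−1.20), CDK11A (−1.23), CD79A (−1.24), NOP53 (−1.24), RPL19 (−1.27), H3-3A (−1.31), MED12 (−1.34), INSIG2 (−1.67), LCLAT1 (−2.27).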

Other observations

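Regulators of chromatin and of protein turnover moved in both directions. Of 44 listed chromatin modifiers 16 were called higher and 21 lower, beside 37.8% and 52.5% over all listed genes. Among them, 9 of 16 histone acetylation genes were called higher and 5 lower, with a median that turns negative on the mitochondrial scale. The histone methylation genes (5 higher and 8 lower of 17) and the remodellers and DNA methylation genes (2 and 8 of 11) leaned the other way. HDAC5, a class II deacetylase, was 7.02-fold higher (5.36 to 9.19), above 0 on that scale without passing the threshold there, and the acetyltransferase CREBBP 3.79-fold lower. CTCF, the insulator protein, was 5.39-fold lower (4.30 to 6.77). Of 11 listed autophagy genes 7 were called higher and 4 lower, and their median turns negative on that scale. ATG16L2 was 8.54-fold higher (5.97 to 12.2), above 0 on that scale without passing, and ATG101 of the initiating kinase complex 21.7-fold lower (14.5 to 32.3).

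Of 115 listed ubiquitin system genes 73 fell and 37 rose, and of 89 listed solute carriers 42 fell and 40 rose. Their median log2 fold changes were −1.23 and −0.94, against −1.07 over all listed genes, of which 52.5% fell and 37.8% rose. C2H2 zinc finger genes leaned more to one side, with 156 of 205 listed genes lower and 19 higher. ZNF627 was 42.4-fold lower (17 to 106). Of 259 listed long noncoding RNA genes 133 were called higher and 98 lower, and of 143 transcribed pseudogenes 100 were called higher and 26 lower; on the mitochondrial scale 44 and 19 of them lie above 0, and both medians turn negative (−1.22 and −0.87).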
